A study of Mus musculus with 12 samples.

Results

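A set of 6 long noncoding RNAs (lncRNAs) was followed across mouse ovaries that lacked the kinase Mtor in oocytes and wild-type ovaries. They are Malat1 and Neat1, which stay in the nucleus, and Gas5, Snhg1, Snhg8 and Snhg12, whose introns hold small nucleolar RNAs (snoRNAs). The 6 were taken by symbol from the 24255 genes of the deposited expression table, and were selected on values already seen, the difference in FPKM between the genotypes. All 6 symbols were found, 5 were above 0 in all 12 libraries, and Snhg1 was listed at 0 in all 12.

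RNA was sequenced from whole ovaries of C57BL/6 mice aged 6 months, all primed for 46 h with 5 IU of equine chorionic gonadotropin (PMSG in the labels), a hormone that makes follicles grow. The CKO group (n = 5 libraries) carried an Mtor deletion made by Gdf9-Cre, and the group labelled wild type (WT, n = 7 libraries) is not described further. Gdf9 is an oocyte gene, so the deletion is aimed at the oocyte while the somatic cells of the ovary, which supply most of its RNA, keep Mtor. The labels name no animal for a library, so a p-value here measures the spread between these libraries. Values are FPKM, a count of fragments divided by transcript length and by the size of the library, from RNA selected for poly(A) tails.

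Malat1 is one of the most abundant nuclear RNAs and gathers in nuclear speckles, where splicing factors are stored. Neat1 is the RNA scaffold of paraspeckles, nuclear bodies that hold RNA-binding proteins, and mice without Neat1 have defects of the corpus luteum. Neither Malat1 nor the long form of Neat1 ends in an ordinary poly(A) tail: the enzyme RNase P cuts the RNA, and a triple helix of a genome-encoded A-rich tract with U-rich tracts shields the new end. The snoRNA hosts make their intronic snoRNAs as they are spliced, and the spliced host RNA is often short-lived, because ribosomes read it and nonsense-mediated decay removes it. Many hosts begin with a run of pyrimidines, the terminal oligopyrimidine (TOP) motif, which places a message under translational control by mTOR. Gas5 was found as a transcript that builds up in growth-arrested mouse cells.

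The 3′ ends of the 2 nuclear RNAs are shown because Malat1 and the long form of Neat1 lack an ordinary tail and the libraries were selected for poly(A). How their reads entered these libraries was not tested. The sequences were read from GENCODE M21 transcripts on mm10, run 5′ to 3′ on the minus strand, and carry a U-rich tract (written with T) and the A-rich tract in capitals.
Malat1: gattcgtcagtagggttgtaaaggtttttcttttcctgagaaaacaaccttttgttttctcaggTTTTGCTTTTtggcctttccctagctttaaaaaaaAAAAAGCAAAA
Neat1: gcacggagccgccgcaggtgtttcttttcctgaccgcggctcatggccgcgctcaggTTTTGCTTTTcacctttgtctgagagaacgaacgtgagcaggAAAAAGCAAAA
The Malat1 stretch lies at chr19:5795982-5796091, with 292 bases of the annotated exon after it, and the Neat1 stretch at chr19:5824708-5824817, the very end of the long transcript. The A-rich tract was taken as the last 11 bases of the long Neat1 transcript, AAAAAGCAAAA, and the U-rich tract as the 10 bases that pair with it, TTTTGCTTTT, and Malat1 holds both. Of 138029 annotated mouse transcripts of at least 110 bases, 4 (0.0029%) hold the A-rich letters with the U-rich letters in the 99 bases before them, searched on the transcript strand. The 2 printed transcripts are among these 4, and the letters were taken from Neat1 itself, so the share is not an independent background.

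The starts of the hosts are shown for their pyrimidine runs, beside the start of Malat1, which is not a host. Each line gives 50 bases before and 50 bases from the RefSeq start site (GRCm38.p6), with the longest run of C and T that reaches within 5 bases of the start in capitals.
Gas5: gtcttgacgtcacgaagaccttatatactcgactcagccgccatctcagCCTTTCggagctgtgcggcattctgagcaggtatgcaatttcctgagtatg
Snhg1: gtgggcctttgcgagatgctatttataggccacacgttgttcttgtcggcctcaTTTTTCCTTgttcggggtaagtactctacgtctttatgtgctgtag
Snhg8: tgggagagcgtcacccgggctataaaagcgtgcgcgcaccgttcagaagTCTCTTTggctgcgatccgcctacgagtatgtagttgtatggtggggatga
Snhg12: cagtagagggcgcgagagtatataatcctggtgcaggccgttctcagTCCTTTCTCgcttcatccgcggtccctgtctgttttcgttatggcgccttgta
Malat1: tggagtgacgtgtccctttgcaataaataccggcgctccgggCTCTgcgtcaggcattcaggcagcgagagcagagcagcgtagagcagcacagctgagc
The windows lie at chr1:161035116-161035215 (plus, Gas5), chr19:8723437-8723536 (plus, Snhg1), chr3:123508287-123508386 (minus, Snhg8), chr4:132308628-132308727 (plus, Snhg12) and chr19:5802623-5802722 (minus, Malat1). The run was 6 bases long in Gas5, 9 in Snhg1, 7 in Snhg8, 9 in Snhg12 and 4 in Malat1. It began 1 base before the start site in Gas5 and Snhg8, 3 before it in Snhg12 and 8 before it in Malat1. In Snhg1 it began 4 bases after the start site, so its length is not that of a run at the first base. A run of at least 5 bases was present in 32.9% of the 32851 promoter windows of the same table, and a run of at least 8 in 9.72%. Over the whole 300-base entries, on both strands, TATAAA was found in Snhg1 and Snhg8 and in 13.6% of all promoters, and TATATA in Gas5 and Snhg12 and in 5.67%. These letters can overlap one another. The letters TGACGTCA stood in the Gas5 entry and in 1.79% of all promoters, GGGCGG in Gas5, Snhg1 and Snhg8 and in 35.7%, and CCAAT in Snhg8 and in 37.4%. Gas5 has 2 starts in the RefSeq table, and the one nearest the deposited locus was used.

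In the genome, Malat1 (chr19:5795690-5802672, minus strand) and Neat1 (chr19:5824708-5845478, minus strand) are neighbours, with 22035 bases between them. The hosts are spread out: Gas5 at chr1:161034422-161038539 (plus), Snhg1 at chr19:8723475-8726443 (plus), Snhg8 at chr3:123507552-123508404 (minus) and Snhg12 at chr4:132308623-132311024 (plus). Each table row is a gene, so the 4 Malat1, 4 Neat1, 25 Gas5, 3 Snhg8 and 10 Snhg12 transcripts of GENCODE M21 cannot be told apart. That includes the short Neat1 form, which has a poly(A) tail, and the long one of 20771 bases, which has none. The use of strand is not given in the sources used here, so reads of a gene that overlaps one of these on the other strand cannot be told apart from it.

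The deposited values of the 12 libraries were alike in scale, with an upper quartile of 12.9 to 13.2 FPKM. The scaling behind them is not given in the sources used here, and whether it made them alike was not tested. Between 14945 and 16083 genes were above 0, and correlations between libraries were 0.960 to 0.987 over genes. Total counts were not used here, but the steps between low values put a single fragment of a 1 kb RNA at 0.294 to 0.644 FPKM. A level of 10 FPKM on 1 kb then rests on 15.5 to 34 fragments, which limits the precision of the hosts more than that of Malat1 and Neat1.

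Malat1 had the highest mean of the 6 in the CKO ovaries, and was the only one of the 5 above 0 whose genotypes did not overlap. It stood at 831, 971, 964, 714 and 618 FPKM in CKO libraries 1 to 5, and in WT libraries between 275 and 578 FPKM with a median of 344 FPKM. The lowest CKO library, CKO 5, was above the highest WT library, WT 2. The WT libraries were themselves split, with WT 2, WT 4 and WT 7 at 509 to 578 FPKM and the other 4 at 275 to 344 FPKM. The mean was 819.6 ± 154.5 FPKM in CKO (SD, n = 5) and 407.8 ± 126.8 FPKM in WT (SD, n = 7). On the log2(FPKM + 1) scale, used for every difference below, CKO was higher by 1.04 (SE 0.21), a 2.06-fold level. Leaving out any single library kept that difference between 0.96 and 1.14.

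Neat1 was higher on average in CKO, but this rested mainly on 2 libraries. The CKO libraries stood at 356, 912, 1111, 423 and 509 FPKM, and the WT libraries between 206 and 505 FPKM with a median of 345 FPKM. CKO 2 and CKO 3 were far above every WT library, CKO 5 was just above WT 7, and CKO 1 and CKO 4 lay within the WT range. Means were 662.2 ± 330.8 FPKM in CKO and 359.5 ± 98.69 FPKM in WT (SD, n = 5 and 7), and the log2 difference was 0.79 (SE 0.28). Without CKO 2 and CKO 3, libraries left out after their values were seen, the difference was 0.29, and with both kept but CKO 1 and CKO 5 left out it was 1.12. The same 2 libraries held the oviduct glycoprotein transcript Ovgp1 at 252.4 and 81.9 FPKM, against 1.54 to 1.88 FPKM in the other 3 CKO libraries and at most 1.46 FPKM in WT. They also had the lowest summed macrophage markers (1492 and 1489 FPKM, against 1987 to 4334 FPKM in the other CKO libraries) and the lowest blood transcripts of the CKO group (77.1 and 50.3 FPKM). The blood sums here and below are rough, because single globin rows moved between near 0 and high values. Hbb-bs was at 0.0314 FPKM in CKO 1, 50.4 FPKM in CKO 2, 143.6 FPKM in WT 1 and 0.0328 FPKM in WT 2. CKO 2 and CKO 3 were also the highest libraries for Malat1, and the part of oviduct tissue in the Neat1 and Malat1 levels was not tested.

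**Figure D1:**
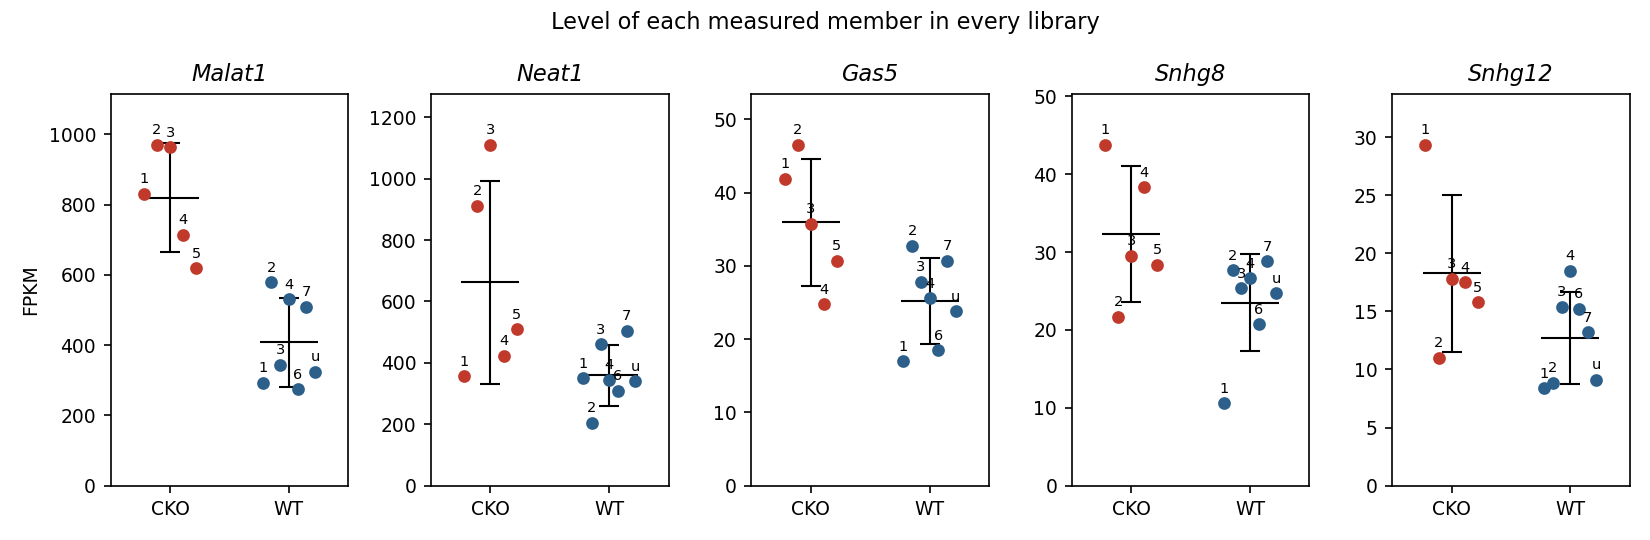
Level in FPKM (vertical axes, each from 0) of the 5 lncRNAs measured above 0, in CKO and WT ovaries; points are libraries with their replicate numbers (u is the unnumbered WT library), the wide bar is the mean and the whiskers are 1 SD. The 5 CKO libraries lie above all 7 WT libraries for Malat1, and the groups overlap for the other 4.

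Gas5, the host of several box C/D snoRNAs, was at a level about an order of magnitude under the nuclear pair. CKO libraries 1 to 5 held 41.9, 46.5, 35.8, 24.8 and 30.7 FPKM, and WT libraries 17.0 to 32.7 FPKM with a median of 25.6 FPKM. CKO 1, 2 and 3 were above every WT library, while CKO 4 and CKO 5 lay inside the WT range. Means were 35.9 ± 8.66 FPKM in CKO and 25.2 ± 5.90 FPKM in WT, a log2 difference of 0.50 (SE 0.18).

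Snhg8 holds a box H/ACA snoRNA, Snora24. Its level was 43.8, 21.7, 29.5, 38.4 and 28.4 FPKM in CKO libraries 1 to 5, and 10.6 to 28.9 FPKM in WT libraries with a median of 25.4 FPKM. CKO 1 and CKO 4 were the highest of all libraries and CKO 2 lay below most WT libraries, so the order of the CKO libraries differed from that of Gas5, in which CKO 2 was the highest and CKO 4 the lowest. The log2 difference was 0.46 (SE 0.23), from means of 32.4 ± 8.73 FPKM in CKO and 23.5 ± 6.27 FPKM in WT. WT 1 was low, at 10.6 FPKM against 20.8 to 28.9 FPKM in the other WT libraries, and the difference was between 0.29 and 0.59 when single libraries were left out.

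Snhg12 was the lowest of the 5, and its introns hold the H/ACA snoRNAs Snora16a, Snora44 and Snora61 and the C/D snoRNA Snord99. CKO libraries 1 to 5 held 29.3, 11, 17.8, 17.5 and 15.8 FPKM, and WT libraries 8.38 to 18.5 FPKM with a median of 13.2 FPKM. CKO 1 alone was above all WT libraries. The log2 difference of 0.48 (SE 0.23) came from means of 18.3 ± 6.75 FPKM in CKO and 12.7 ± 3.96 FPKM in WT, and it was 0.30 without CKO 1. CKO 1 also had the highest Snhg8, Snhg3 and Rmrp levels. Summed blood transcripts were at 1201 FPKM in CKO 1 and 1212 FPKM in CKO 5, against 50.3 to 326.2 FPKM in the other 3 CKO libraries, and their part in the Snhg12 level was not tested.

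Snhg1, the host of Snord22, was listed at 0 in all 5 CKO and all 7 WT libraries. In this table a 0 can be a failed estimate, since 12 of 81 ribosomal protein genes are at 0 in every library as well, so no level is given for it. The snoRNAs themselves were not measured in a usable way. All 7 snoRNA rows that share a locus with one of the hosts (Snord47, Snord22, Snora24, Snora16a, Snora44, Snora61 and Snord99) were at 0 in all libraries. Of 117 snoRNA and Cajal body RNA rows, 4 were above 0 in any library, the highest being Snora81 at 323 FPKM in CKO 5 and 0 in every other library.

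All 5 measured lncRNAs had a positive genotype difference, with a median of 0.50 on the log2 scale, while 49.3% of the 13168 genes tested were positive and the median over those genes was −0.01. Adjusted over all genes tested with limma, 1 of the 5 (Malat1) passed the threshold of 0.05, where 16.3% of all genes did (8.7% higher and 7.59% lower in CKO). Malat1 was also the only one of the 5 without overlap of the groups, a pattern of 7.73% of genes (4.09% with CKO higher). The choice of the 6 used this contrast, so nothing is read from these counts. Differences above 0.46, the lowest of the 5, were found in 12.6% of all genes tested. In bulk ovary, more RNA per cell and more cells of a type that holds the RNA cannot be told apart.

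**Figure D2:**
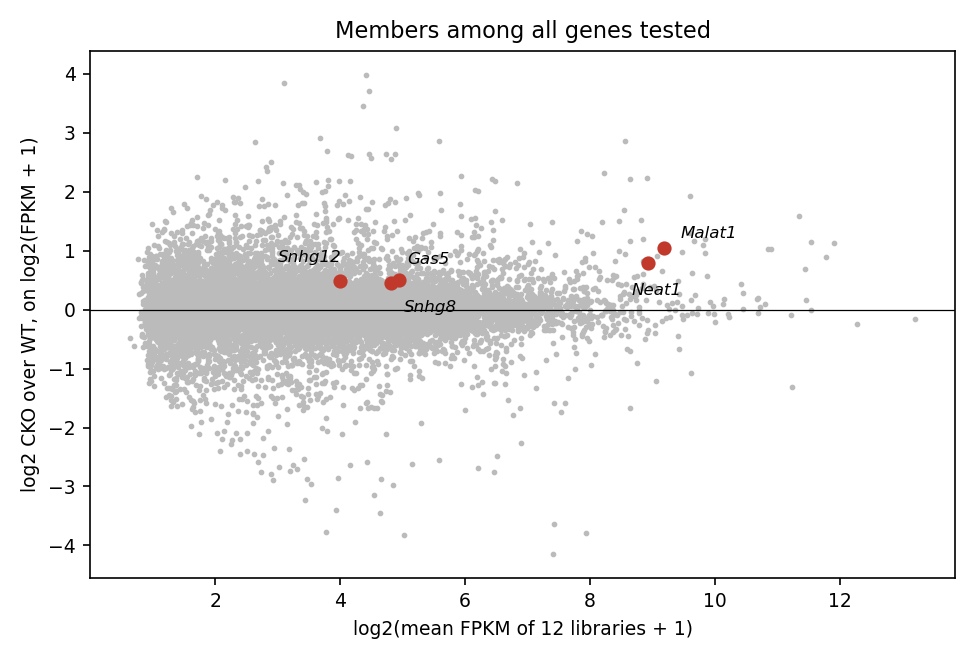
Log2 difference of CKO over WT (vertical axis) against log2 of the mean FPKM of 12 libraries plus 1 (horizontal axis) for the 13168 genes tested (grey points) and the 5 measured lncRNAs (red points). Malat1 and Neat1 stand at the high end of expression with differences of 1.04 and 0.79, and the 3 hosts lie in the middle of the range between 0.46 and 0.50.

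Summed markers of several, but not all, ovarian cell types separated the same CKO and WT libraries. The sums of 6 theca markers overlapped (7052 to 18190 FPKM in CKO, 7865 to 19960 FPKM in WT), with 0 called and 0 positive estimates. Hsd3b1 made up most of each sum, so whether theca cells differed cannot be read from the sums. Cyp17a1, a low gene of that list, ranged from 7.95 to 30.2 FPKM in CKO. Its range was 41.2 to 266.7 FPKM over the numbered WT libraries, while the unnumbered one held only 1.46 FPKM. The sums of 5 endothelium markers also overlapped (123.9 to 177.4 FPKM in CKO, 72.4 to 164.4 FPKM in WT), with 1 higher and 0 lower. Summed transcripts of 10 oocyte markers, 8 of them tested (10.4 to 59.9 FPKM in CKO, 64.8 to 220.8 FPKM in WT) and of 10 granulosa markers (1329 to 2476 FPKM in CKO, 3713 to 6621 FPKM in WT) were lower in every CKO library, with 6 of 8 and 10 of 10 genes lower by the test. Those of 7 stroma markers (2737 to 3656 FPKM in CKO, 1082 to 1747 FPKM in WT) and of 9 macrophage markers (1489 to 4334 FPKM in CKO, 432 to 1349 FPKM in WT) were higher in every CKO library, with 5 of 7 and 8 of 9 genes higher. Of 9 immediate-early genes, which respond to stress and handling within minutes, 6 were higher, with sums of 1731 to 7307 FPKM in CKO and 399 to 2241 FPKM in WT. All 7 genes of dividing cells were lower, with sums of 16.8 to 46.8 FPKM in CKO and 69.0 to 100.1 FPKM in WT. None of these lists had a gene at 0 in all libraries. The unnumbered WT library stood apart in some of these genes. Cyp19a1 was at 1.26 FPKM there (28.8 to 88.9 FPKM in the other WT libraries) and Lhcgr at 45.9 FPKM (287.9 to 373.5 FPKM). Inhba was at 39.4 FPKM (193.6 to 500.8 FPKM) and Amh at 308.6 FPKM (35.1 to 125.7 FPKM). Foxl2, Fshr, Inha and Nr5a2 lay within the range of the others. It was kept in the WT means, SDs and correlations. The cause of this profile, and the part of cell makeup or of handling in the levels of the 5 lncRNAs, were not tested.

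FPKM is a scale per length, but the transcript lengths the authors used are not given, and poly(A) selection may capture these RNAs unequally, so the order below is that of the deposited values and not of molecules in the tissue. Averaged over the libraries, Malat1 and Neat1 ranked 61 and 73 of the 13168 genes tested, Gas5 3111, Snhg8 3380 and Snhg12 5567. Malat1 and Neat1 changed places from library to library: Malat1 was the higher in 4 of 5 CKO libraries (Malat1 over Neat1 0.868 to 2.33, median 1.22) and in 3 of 7 WT libraries (0.746 to 2.81, median 0.953). Neat1 exceeded Gas5 in all 12 libraries, by 8.51 to 31.1 times in CKO and 6.28 to 20.6 times in WT. Gas5 and Snhg8 were not separated, with Gas5 the higher in 3 of 5 CKO and 4 of 7 WT libraries. Snhg8 was above Snhg12 in all 12, by 1.49 to 2.19 times in CKO and 1.26 to 3.13 times in WT.

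The 5 also differed in how much they varied within a genotype. The pooled SD on the log2 scale was 0.555 for Neat1, larger than that of 90.1% of genes tested, and 0.448 for Snhg12, 0.442 for Snhg8, 0.389 for Malat1 and 0.345 for Gas5, against a median of 0.277 over all genes. The libraries that were high differed between the RNAs. CKO 2 was 1.39 above the WT mean for Neat1 and 1.31 above it for Malat1, yet 0.05 below it for Snhg8 and 0.13 below it for Snhg12. CKO 1 was the opposite case, at 1.204 for Snhg12 and 0.93 for Snhg8 with Neat1 at 0.04.

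**Figure D3:**
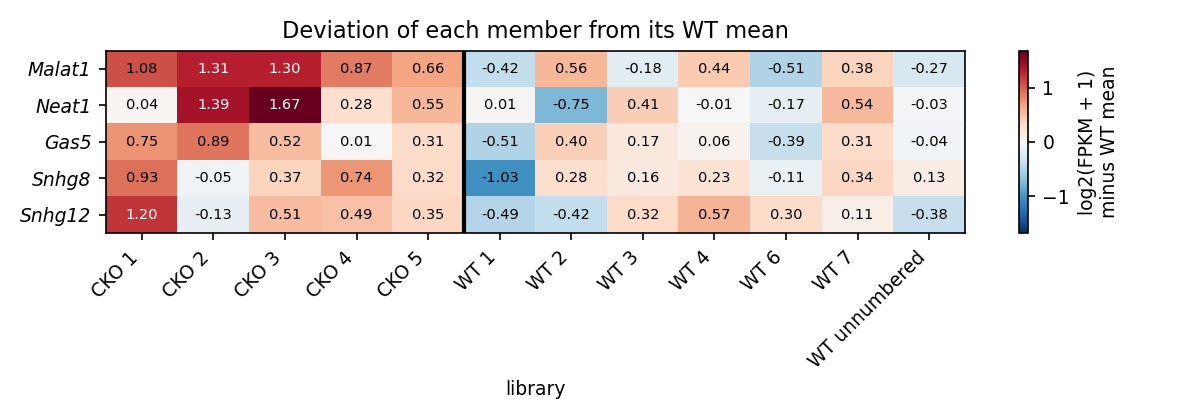
Deviation of log2(FPKM + 1) from the WT mean (colour and printed value) for the 5 measured lncRNAs (rows) in the CKO libraries and the WT libraries (columns, divided by the black line). CKO 2 and CKO 3 are highest for Malat1 and Neat1, CKO 1 for Snhg8 and Snhg12, and WT 1 is 1.03 below the WT mean for Snhg8.

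Variation among the 7 WT libraries does not use the genotype contrast, and there Gas5 and Snhg8 were correlated. Pearson's r of their log2 levels was 0.841 (exact two-sided permutation p = 0.001587, adjusted over 10 pairs 0.01587) and Spearman's rho was 0.929 (exact permutation p = 0.006746, adjusted 0.06746). WT 1 and WT 6 were the lowest of the 7 for both. Without the 2 libraries farthest from the median of Gas5, r was 0.793, and leaving out single libraries gave 0.822 to 0.938. The adjusted p no longer passed the threshold without WT 1, without WT 6 or without the unnumbered WT library. WT 1 had the highest blood sum (531.4 FPKM) and the lowest macrophage sum (432 FPKM) of the WT libraries, and WT 6 the highest macrophage sum (1349 FPKM); the part of these in the correlation was not tested.

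Malat1 and Gas5 had an r of 0.829 (exact permutation p = 0.02698, adjusted 0.1349) and a rho of 0.857 (exact permutation p = 0.02381, adjusted 0.07937), which did not pass over 10 pairs. Without the 2 libraries farthest from the median of Malat1, r was 0.850. For Malat1 and Snhg8, r was 0.639 (exact permutation p = 0.0488, adjusted 0.1627) and 0.598 without the 2 farthest libraries. Malat1 and its neighbour Neat1 had an r of −0.19 (exact permutation p = 0.7244, adjusted 0.9759) and a rho of −0.04 (exact permutation p = 0.9635). That value turned on single libraries, since WT 2 was the highest of the WT libraries for Malat1 and the lowest for Neat1. Without WT 2 alone, r was 0.499 (exact permutation, adjusted p = 0.407). Leaving out the 2 libraries farthest from the median of Malat1 gave 0.873 over only 5 libraries, which did not pass (exact permutation, adjusted p = 0.167). Of the 10 pairs, 8 had a positive r, 1 passed the threshold on r and 0 passed on rho, where 3 had an unadjusted exact permutation p under 0.05 on each. The CKO group has 5 libraries, too few for a correlation.

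**Figure D4:**
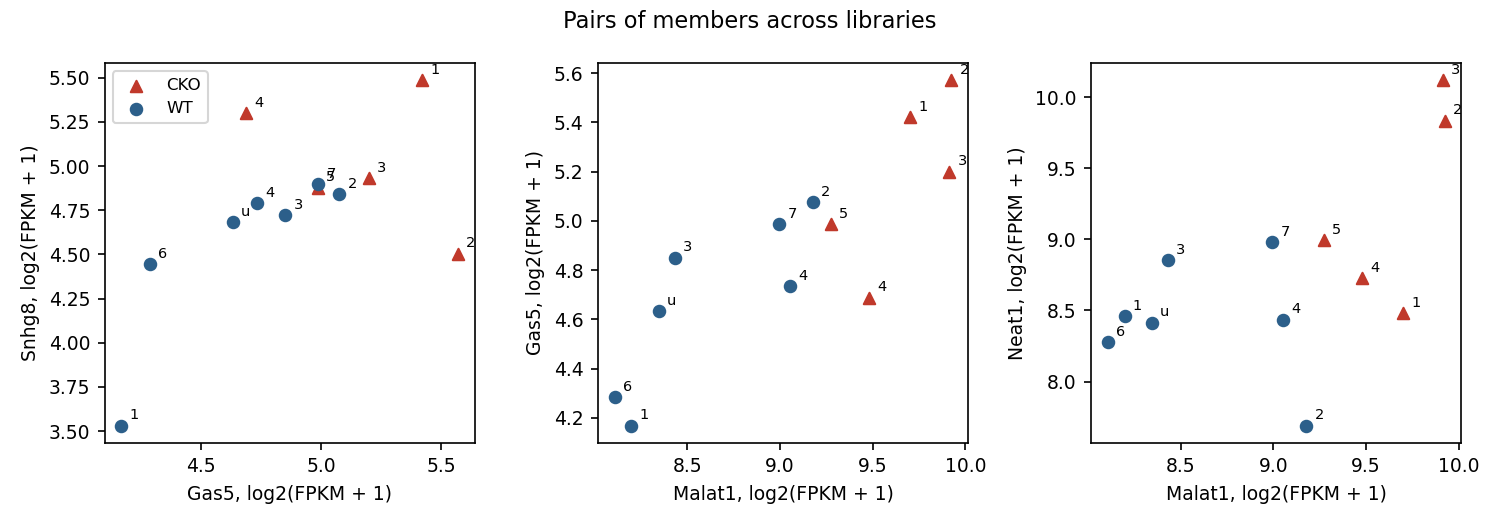
Log2(FPKM + 1) of Snhg8 against Gas5, of Gas5 against Malat1 and of Neat1 against Malat1, with CKO libraries as triangles and WT libraries as circles, numbered by replicate (u is the unnumbered WT library). In the first panel the WT libraries rise together (r = 0.841) while CKO 2 and CKO 4 lie off that line on opposite sides; in the third panel WT 2 stands apart at the lower right.

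The genes most like each lncRNA were taken by r of log2 levels, as deviations from the genotype means over 12 libraries, as a description that shares libraries and depth with the lncRNA itself. For Gas5 the first was Eif4a2 (r = 0.913), followed by Trmt2b (0.900) and Fcho2 (0.890). Eif4a2 encodes a helicase of translation initiation and is a snoRNA host too. Malat1 was closest to Rpgr (0.931), Pcdhb18 (0.930) and BC005561 (0.885). The first of these encodes a ciliary protein and averaged 1.87 FPKM in CKO and 2.14 FPKM in WT, near the filter. Neat1 was closest to Prob1 (0.950), 1700018L02Rik (0.949) and C330006A16Rik (0.933), Snhg8 to Fam69a (0.917), Wdr45 (0.909) and Atp9a (0.907), and Snhg12 to Hdac10 (0.920), Fis1 (0.908) and Fam57a (0.902). Hdac10 was also near the filter, at 1.84 FPKM in CKO and 1.76 FPKM in WT. Among the lncRNAs themselves the likeness was highest for Malat1 with Gas5 (r = 0.774) and for Snhg8 with Snhg12 (r = 0.603). For Gas5 with Snhg8, whose r was 0.841 over the WT libraries alone, it was 0.408 over all 12. It was 0.151 for Malat1 with Neat1 and −0.33 for Neat1 with Snhg8.

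Most other snoRNA host lncRNAs had a positive estimate. All the gene lists were chosen with earlier results of these data known, so their counts and p-values are a description. Of 17 listed, 11 were in the table, Snhg6 and Snhg9 were at 0 in all libraries, and 9 were tested. Of these 9, 3 rose and 0 fell, where 8.7% of all genes rose. A positive estimate was found for 8, where 49.3% of all genes tested had one, and the median log2 difference was 0.42. Snhg18 was at 89.3, 77.6, 67.6, 75 and 69.9 FPKM in CKO libraries and at 42.8 to 68.7 FPKM in WT libraries, so only CKO 3 lay below the highest WT library. Its log2 difference was 0.45 (SE 0.13, limma adjusted p = 0.0248), and the call was lost without CKO 1. Snhg11, a brain-enriched host, averaged 12.1 ± 4.26 FPKM in CKO and 6.77 ± 1.64 FPKM in WT (limma adjusted p = 0.0272), and the call was lost without CKO 2, CKO 3 or CKO 5. Dancr, known as an inhibitor of cell differentiation, averaged 17.2 ± 4.21 FPKM in CKO and 10.6 ± 2.62 FPKM in WT (limma adjusted p = 0.0349), and its call was lost in 6 of the 12 fits with 1 library left out (CKO 1, 2, 4 and 5, WT 1 and 7). Snhg3, the most abundant of the 9, was at 98.95 ± 36.4 FPKM in CKO and 75.3 ± 28.4 FPKM in WT and did not pass (limma adjusted p = 0.340). Of the 9, 1 was called without CKO 1 and 5 (Snhg11) and 1 without CKO 2 and 3 (Dancr).

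Protein-coding snoRNA hosts, many of them ribosomal protein and translation factor genes with TOP motifs, were split in sign. Of 15 rows found, Rps12 was at 0 in all libraries and 12 were tested. Of these 12, 1 rose, near the 8.7% of all genes that rose, 0 fell, 5 had a positive estimate and the median was −0.09. Eif4a2 rose to 259.1, 269.0, 248.1, 207.1 and 226.5 FPKM in CKO libraries, against 157.6 to 207.9 FPKM in WT libraries (log2 difference 0.35, SE 0.10, limma adjusted p = 0.0278). Its call was lost in 5 of the 12 fits with 1 library left out (CKO 1, 2 and 3, WT 1 and 6) and without CKO 1 and 5 or CKO 2 and 3 together. Gnb2l1, the ribosomal scaffold also called Rack1, averaged 156 ± 43.9 FPKM in CKO and 210.2 ± 25.7 FPKM in WT (limma adjusted p = 0.0510). Eef2, the elongation factor, was at 731 ± 98.0 FPKM in CKO and 773 ± 76.1 FPKM in WT (limma adjusted p = 0.689).

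Of all 13168 genes tested in limma, 16.3% were called and 3974 had an unadjusted p under 0.05. The proteins that package snoRNAs gave 0 calls among 12 tested of 15 listed, 0 with an unadjusted p under 0.05, and a median of 0.03. Dkc1, the pseudouridine synthase of H/ACA particles, had the smallest p of them, at 20.01 ± 2.82 FPKM in CKO and 17.4 ± 3.41 FPKM in WT (limma adjusted p = 0.347). The 14 nonsense-mediated decay factors also gave 0 calls in limma, 2 with an unadjusted p under 0.05, and a median of −0.07. Smg9, a regulator of the decay kinase Smg1, came closest, at 6.21 ± 2.08 FPKM in CKO and 3.91 ± 0.818 FPKM in WT (limma adjusted p = 0.0951).

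Paraspeckle proteins, the partners of Neat1, had mostly negative estimates. All 13 were tested, 0 rose and 1 fell, where 7.59% of all genes fell, and 2 had a positive estimate, with a median of −0.10. Rbm14, needed to build paraspeckles, fell to 18.9, 14.9, 20.9, 22.2 and 22.2 FPKM in CKO libraries, against 21.8 to 34.5 FPKM in WT libraries (log2 difference −0.46, SE 0.13, limma adjusted p = 0.02995). The groups overlapped at 1 WT library, WT 2, and the call was lost without CKO 1, CKO 2, WT 1 or WT 6, and without CKO 1 and 5 or CKO 2 and 3 together. Sfpq, a core paraspeckle protein, averaged 67.9 ± 14.4 FPKM in CKO and 85.0 ± 7.27 FPKM in WT (limma adjusted p = 0.0777). Its partner Nono was at 170.4 ± 14.3 FPKM in CKO and 179.6 ± 12.1 FPKM in WT (limma adjusted p = 0.601).

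Speckle and SR splicing proteins, which meet Malat1 in speckles, gave 0 calls in limma among 13, 2 with an unadjusted p under 0.05, and a median of 0.06. Over all 13168 genes tested, 3974 had such an unadjusted p and 16.3% were called. Srsf1, an SR protein that binds Malat1, averaged 85.1 ± 7.72 FPKM in CKO and 99.9 ± 7.17 FPKM in WT (limma adjusted p = 0.0863). Clk1, the kinase that phosphorylates SR proteins, varied more within groups, at 33.8 ± 13.8 FPKM in CKO and 19.8 ± 11.6 FPKM in WT (limma adjusted p = 0.121).

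Among 10 other long noncoding RNAs tested of 16 listed, 1 rose, near the 8.7% of all genes that rose, 0 fell, 6 had a positive estimate and the median was 0.18. Ftx, an RNA of the X-inactivation centre, was at 5.35 ± 1.58 FPKM in CKO and 2.99 ± 0.839 FPKM in WT (log2 difference 0.67, SE 0.20, limma adjusted p = 0.0317), and its call was lost in 7 of the 12 fits with 1 library left out (CKO 1, 2, 4 and 5, WT 1, 4 and 6), without a filter on low values, and without CKO 1 and 5 or CKO 2 and 3 together. Xist, the nuclear RNA that coats the inactive X chromosome, averaged 46.5 ± 27.8 FPKM in CKO and 49.1 ± 3.46 FPKM in WT (limma adjusted p = 0.550). Tug1, another broadly expressed lncRNA, was at 48.2 ± 9.85 FPKM in CKO and 49.5 ± 8.28 FPKM in WT (limma adjusted p = 0.859). Of RNAs without a poly(A) tail, 2 were tested and gave 0 calls in limma, 0 with an unadjusted p under 0.05. Such an unadjusted p was found for 3974 of all 13168 genes tested, and 16.3% were called. Rmrp, the RNA of RNase MRP, ranged from 6.97 to 146.7 FPKM in CKO and from 12.2 to 57.3 FPKM in WT, and Rpph1, the RNA of the RNase P that trims Malat1, averaged 28.5 ± 13.02 FPKM in CKO and 37.7 ± 15.5 FPKM in WT (limma adjusted p = 0.641).

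**Figure D5:**
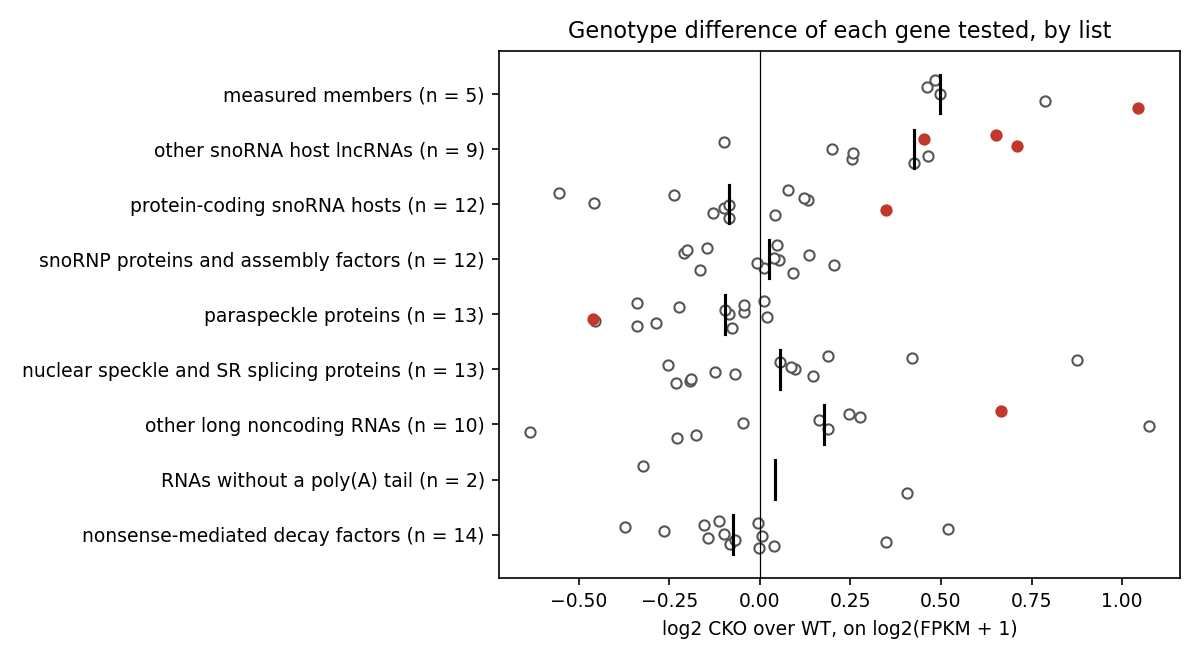
Log2 difference of CKO over WT (horizontal axis) of each gene tested, by list (rows); filled red points passed the threshold over all genes, open points did not, and the black bar is the median of the list. The measured lncRNAs (median 0.50) and the other snoRNA host lncRNAs (median 0.42) lie mostly above 0, while protein-coding hosts (−0.09) and paraspeckle proteins (−0.10) centre near 0.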

How the data were processed

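RNA of 12 whole-ovary samples (5 CKO, 7 WT) was sequenced after poly(A) selection, per the labels' protocols. The submitters' processing notes name TopHat2 2.0.13, Cufflinks 2.2.1, Cuffdiff and mm10; the sources used here do not give the annotation, the scaling or the strand setting. The authors deposited FPKM values per gene, with their own Cuffdiff results, which were not used. Columns were assigned by the sample labels. The name of 1 WT column matches the labels of 2 WT samples, so that library is called the unnumbered WT library.

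FPKM were analysed as log2(FPKM + 1), a scale that understates the change of low genes. Genes with at least 1 FPKM in at least 5 libraries (13168) were tested with limma 3.58.1 in R 4.3.3 (trended empirical Bayes, genotype as the only term, two-sided, Benjamini-Hochberg, threshold 0.05). The fit was tested on simulated data. The lncRNAs and all gene lists were chosen with earlier results of these data known, so no p is given for the lncRNAs themselves in that contrast. From each list, the 3 genes with the smallest p and the 2 with the highest mean were eligible to be named, and for each lncRNA the 3 genes most like it. Correlations used exact permutations over all pairings of the 7 WT libraries (scipy 1.17.1); 10 pairs were tested, since Snhg1 was at 0. Sequences are from GENCODE M21 transcripts and RefSeq promoters (GRCm38.p6), which gave an entry for 5 of the 6. Alternatives covered pseudocounts, filters, scalings, array weights, a replicate block and left-out libraries.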

Additional observations from a re-analysis of the deposited data

Results flagged for a closer look

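Of 82 sets of values (1 gene in 1 genotype) looked at, 6 held a library whose gap to its nearest neighbour was large for the range of its group; chance alone gives about 1 in 20. None of the 6 belonged to Malat1, Neat1, Gas5, Snhg8 or Snhg12. Among CKO libraries, CKO 2 was high for Clk1 (57.8 FPKM, against 24.8 to 33.6 FPKM in the other CKO libraries) and for Xist (94.7 FPKM, against 27.7 to 45.9 FPKM). CKO 2 was also the highest CKO library for Malat1 and Gas5. Among WT libraries, WT 3 was high for Snhg11 (10.1 FPKM, against 4.80 to 6.69 FPKM in the other WT libraries) and for Nop10 (145 FPKM, against 115.6 to 125.6 FPKM). Tug1 was high in WT 2 (67.6 FPKM, against 43.4 to 50.3 FPKM in the other WT libraries). Upf3b was low in WT 1 (7.46 FPKM, against 12.02 to 15.4 FPKM in the other WT libraries).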

How the results depend on the processing

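The differences of Malat1, Neat1, Gas5, Snhg8 and Snhg12 were positive under every pseudocount, filter, scaling, weighting, block and left-out library that was run. Leaving out single libraries gave 0.57 to 0.97 for Neat1, 0.40 to 0.62 for Gas5 and 0.30 to 0.64 for Snhg12. In those fits, 893 to 1200 genes rose and 737 to 1106 fell. The genes called numbered 1 to 3 for other snoRNA host lncRNAs, 0 to 2 for protein-coding hosts, paraspeckle proteins and other long noncoding RNAs, 0 to 1 for decay factors, and 0 for the snoRNP, speckle and tailless lists. Pairs of lncRNAs passing numbered 0 to 1, and 0 without the 2 farthest libraries. Estimates near 0 crossed it: Hnrnpk −0.00613 to 0.0508, Nhp2l1 −0.0304 to 0.0624, Nop10 −0.0258 to 0.149, Rmrp −0.0646 to 0.988, Rps20 −0.0315 to 0.183, Tug1 −0.151 to 0.0304, and r of Malat1 with Neat1 −0.52 to 0.50. That r was 0.873 without the 2 farthest libraries, where it did not pass (exact permutation, adjusted p = 0.167).

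Same-numbered libraries did not deviate together (r −0.03, 0.09, 0.04 and −0.07 for numbers 1 to 4). These values cannot tell whether the numbers pair samples, since paired samples need not deviate together. A replicate block over those 8 libraries gave 756 higher and 622 lower genes. It called 0 other snoRNA hosts, 0 protein-coding hosts, 0 paraspeckle proteins, 1 speckle protein and 0 other long noncoding RNAs. The same 8 libraries with no block, an alternative chosen after seeing the data, called 0 genes in every list, those 5 included. With the block or without it on these 8 libraries, Nhp2l1 was −0.0683, Nop10 −0.0321 and Hnrnpk −0.0150.

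Array weights called 2 protein-coding hosts. Without the filter, or with 5 FPKM as its minimum, which leaves Ftx out of the test, 0 other long noncoding RNAs were called. The 2 sets of CKO libraries left out were also chosen after seeing the data. Without CKO 1 and 5, 702 genes rose, and calls were 1 other host, 2 protein-coding hosts, 2 speckle proteins, 0 other long noncoding RNAs and 1 decay factor; Rps20 was −0.14, Nhp2l1 −0.10, Nop10 −0.11, Hnrnpk −0.0345, Tug1 0.0727, Xist 0.10 and Rmrp −0.28. Without CKO 2 and 3, calls were 1 other host, 0 protein-coding hosts, 0 paraspeckle proteins, 1 speckle protein, 2 other long noncoding RNAs and 1 decay factor; Eef2 was 0.0250 and Srsf5 −0.00829. The cause of these changes was not tested. Depth limits the low genes: 1 fragment on 1 kb was worth up to 0.644 FPKM.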
